A study of Mus musculus with 10 samples.

Results

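The genes described here encode the enzymes that break down the branched-chain amino acids leucine, isoleucine and valine, the propionate and cobalamin steps that follow, and a smaller set that handles lysine, glutamate, ornithine and glycine. They were taken as a fixed list of 34 names matched to the gene symbols of the deposited table. Mut and Mmut name the same gene, so the list held 33 genes of the 45706 in the table, and 30 of them reached at least 1 CPM (reads of a gene scaled to a library total of 1000000) in at least 5 libraries, as did 12350 genes in all. Bcat1, Aass and Gldc did not.

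Branched-chain amino acids are first transaminated to keto acids, which the branched-chain keto acid dehydrogenase complex of the mitochondrial matrix then decarboxylates in a committed step. A kinase switches that complex off and a phosphatase switches it on. Leucine carbon ends as acetyl-CoA and acetoacetate, valine carbon as propionyl-CoA, and isoleucine carbon as acetyl-CoA and propionyl-CoA. Propionyl-CoA enters the citric acid cycle as succinyl-CoA through a biotin carboxylase and a cobalamin-dependent mutase. In heart muscle the pathway is a minor source of fuel, and lowered expression of its genes has been described in failing hearts.

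Left ventricular tissue was sequenced from mouse hearts in 2 groups of 5 libraries: TAC with osimertinib, and TAC with placebo, which the labels also call vehicle. In TAC, transverse aortic constriction, surgery narrows the aortic arch so that the ventricle pumps against a higher pressure. Both groups carried it, so no unloaded heart is compared here. Osimertinib inhibits the epidermal growth factor receptor tyrosine kinase and is used against lung cancer, and the study concerned its cardiac toxicity. Strain, age, dose and duration are not given in the labels, and neither is whether each library is its own animal. The p-values therefore cover library-to-library spread only, which may be technical.

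Each library held 15863265 to 21309296 reads, as the steps between low CPM values show. Mitochondrially encoded genes took 37.0% ± 5.22 of reads in osimertinib and 46.8% ± 9.97 in placebo (SD, n = 5 each), with placebo library 5 apart at 63.35% (exact permutation test, two-sided, adjusted p = 0.0714 over 2 measures). To offset such shares, a factor per library, the median over genes of its ratio to the genes' geometric means, was divided out, and values below are these rescaled CPM unless deposited CPM are named. The median log2 fold change of all 12350 genes was 0.01 rescaled and 0.27 in the deposited CPM. Ventricular muscle markers were abundant, with 10 genes summing to 30148 to 51211 CPM in osimertinib and 15751 to 35970 in placebo. Liver markers, from an organ rich in amino acid catabolism, summed to at most 0.656 CPM over 5 genes, and of 8 endothelial markers Tie1 and Fabp4 were called lower, with sums of 1573 to 1976 CPM in osimertinib and 1928 to 2739 in placebo. The other endothelial markers were not called, at log2 fold changes of -0.24 (Cdh5) to 0.35 (Vwf). Of 7 macrophage markers Adgre1 was called higher, with sums of 131 to 167 CPM in osimertinib and 93.3 to 140 in placebo. The other macrophage markers were not called, at 0.13 (Cd68) to 0.36 (Cd163). Of 7 skeletal muscle markers, 2 of them tested, Myl1 was called higher. Over all genes 10.4% were called higher and 10.5% lower. The part of these cell types in the results was not tested. The atrial gene Myl7 stood at 55.5 to 1149 CPM in 6 libraries (osimertinib 1, 2 and 4, placebo 1, 2 and 5) and at 0 to 0.862 in the other 4.

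Most enzymes of branched-chain amino acid breakdown were higher in osimertinib hearts. Of the 30 genes tested, 21 rose and none fell, by limma with Benjamini-Hochberg adjustment over all tested genes at 0.05. Over all genes 10.4% rose and 10.5% fell. The median log2 fold change of the 30 was 0.81, or 1.07 in the deposited CPM, where 21 also rose, against 6.62% of all genes rising and 0.13% falling. With CPM computed without mitochondrial and haemoglobin genes 13 rose, against 3.87% of all genes, and with no filter on low values 11 rose, against 2.52%. The branched-chain, propionate and cobalamin steps held 19 of the 21, out of 24 tested, and the lysine, glutamate, ornithine and glycine enzymes held the other 2, Gcdh and Oat, out of 6. In 9 of the 30 every osimertinib library stood above every placebo library, as in 5.72% of all genes. These 9 were Dbt, Bckdk, Acad8, Auh, Hibadh, Pcca, Pccb, Mmachc and Oat. Levels varied widely inside each group. Osimertinib library 5 was the highest of the 10 libraries for 26 of the 30 genes and osimertinib library 3 for 2, while placebo library 1 was the lowest for 19. In bulk tissue, fewer cells of a type and less RNA per cell cannot be told apart.

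**Figure D1:**
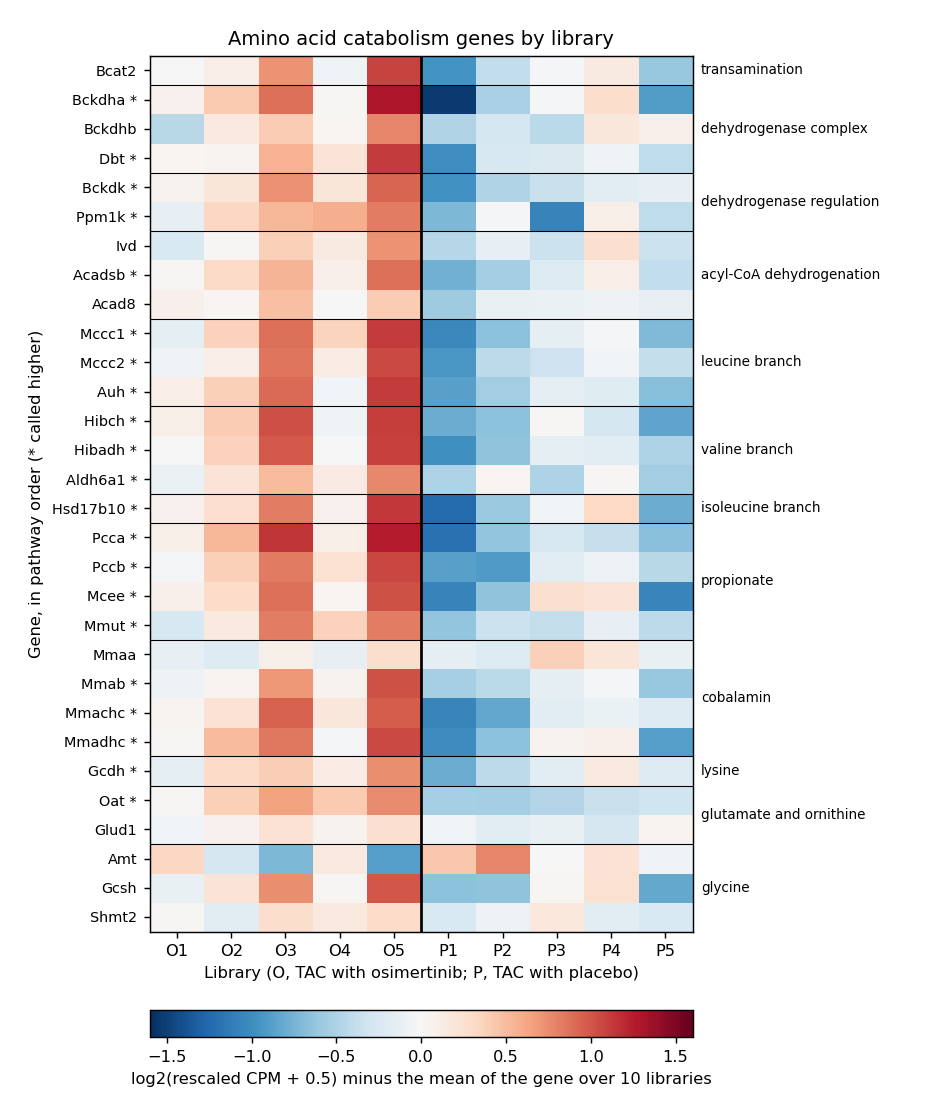
Heat map of the 30 genes tested (rows, in pathway order) in the 10 libraries (columns, osimertinib O1 to O5 left of placebo P1 to P5), coloured by log2(rescaled CPM + 0.5) minus the gene's mean over the libraries. Osimertinib libraries 3 and 5 are the most red and placebo library 1 the most blue, and the rows of Mmaa, Glud1, Amt and Shmt2 depart from the rest.

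Transamination was represented by Bcat2, the mitochondrial branched-chain aminotransferase (chromosome 7, 45570153 to 45589711, GRCm38). It stood at 38.9, 41.6, 63.6, 36.8 and 82.0 CPM in osimertinib libraries 1 to 5, against 19.7, 29.4, 37.9, 42.8 and 25.1 CPM in placebo libraries 1 to 5. The groups overlapped, since osimertinib libraries 1, 2 and 4 lay below placebo library 4. Its log2 fold change of 0.73 ± 0.25 (SE) missed the threshold (limma adjusted p = 0.0558), and it was 1.01 ± 0.33 in the deposited CPM, which passed at 0.0478. Bcat2 also passed without osimertinib library 1 or 4 or placebo library 3 or 4 (0.037 at the lowest). Bcat1, the cytosolic enzyme, was below the filter at 0.608 to 1.5 CPM in osimertinib and 0.281 to 1.98 CPM in placebo, on 6 to 39 reads per library.

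The dehydrogenase complex consists of the decarboxylase subunits Bckdha (E1 alpha) and Bckdhb (E1 beta), the transacylase core Dbt (E2) and the shared dihydrolipoamide dehydrogenase Dld (E3). Bckdha (chromosome 7, 25629946 to 25658981) had 147, 187, 258, 141 and 343 CPM in osimertinib, against 48.0, 97.6, 136, 170 and 75.3 CPM in placebo. Placebo library 4 lay above osimertinib libraries 1 and 4. The rise of Bckdha was 1.07 ± 0.33 in log2 units (limma adjusted p = 0.0415), but the call was lost without osimertinib library 2, 3 or 5 or placebo library 1, 2 or 5 (adjusted p up to 0.106). Bckdhb had 12.3, 18.8, 22.5, 17.2 and 29.2 CPM in osimertinib and 11.9, 13.8, 12.3, 19.2 and 17.8 CPM in placebo. Its groups overlapped for most libraries, and its log2 fold change of 0.37 ± 0.21 did not pass (adjusted p = 0.209). Dbt, at 5.66 to 12.5 CPM in osimertinib and 2.52 to 5.24 CPM in placebo with no overlap, rose by 0.78 ± 0.23 (adjusted p = 0.0345), a call lost without osimertinib library 3 or 5 or placebo library 1, 2 or 5 (up to 0.0893).

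Per kilobase of merged exon, Bckdha had the highest level of the 33 genes, at 113 rescaled CPM in osimertinib and 55.6 in placebo. Its partners stood lower on this scale, Bckdhb at 11.1 and 8.30 and Dbt at 2.31 and 1.25, where merged exons may be longer than the transcripts expressed. The Bckdhb to Bckdha ratio of CPM, which no scaling between libraries can alter, was 0.0836 to 0.122 in osimertinib and 0.0904 to 0.247 in placebo. On the log2 scale it averaged -3.40 ± 0.23 in osimertinib and -2.71 ± 0.64 in placebo (SD, n = 5 each), a difference of -0.69 that was not tested. The placebo spread came from libraries 1 and 5, at 0.247 and 0.236.

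Both regulators of the complex rose. Bckdk, the kinase that inactivates it (chromosome 7, 127904082 to 127910221), had 33.4, 37.0, 53.7, 36.8 and 62.1 CPM in osimertinib, against 16.2, 22.9, 25.1, 28.5 and 29.2 CPM in placebo. Every osimertinib library stood above every placebo library. The log2 fold change was 0.84 ± 0.20 (adjusted p = 0.0192), and only the fit without osimertinib library 3 lost the call (0.0581). Ppm1k, the phosphatase that activates the complex (chromosome 6, 57506502 to 57535468), had 12.4, 17.3, 20.0, 20.7 and 24.5 CPM in osimertinib, against 8.13, 13.4, 6.23, 14.7 and 10.2 CPM in placebo. Only osimertinib library 1 lay below any placebo library. Its log2 fold change was 0.85 ± 0.23 (adjusted p = 0.0287), lost without osimertinib library 3 or 5 or placebo library 1 (up to 0.0777). The Ppm1k to Bckdk ratio was 0.371 to 0.563 in osimertinib and 0.248 to 0.584 in placebo, and its log2 mean differed by 0.03, within the SD of 0.26 in osimertinib and 0.51 in placebo. The Bckdk to Bckdha ratio, 0.181 to 0.26 in osimertinib and 0.167 to 0.388 in placebo, also overlapped.

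**Figure D2:**
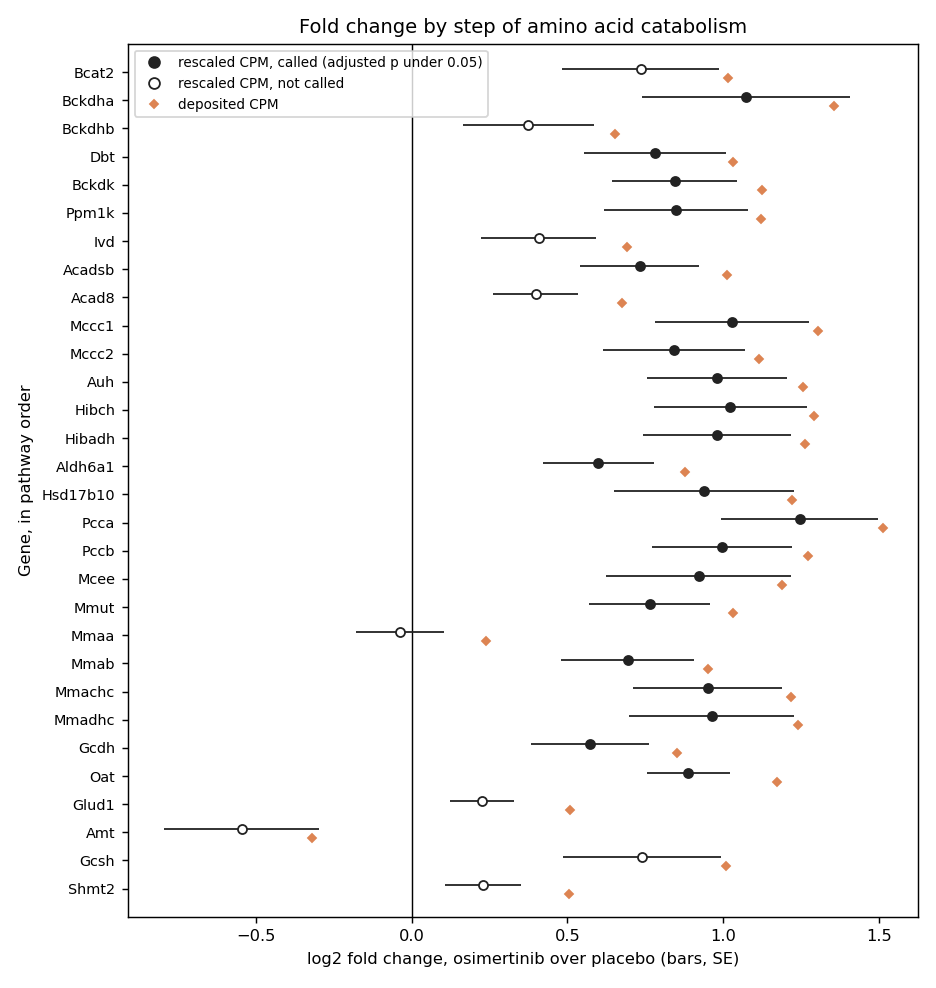
Log2 fold change of osimertinib over placebo for the 30 genes in pathway order, with bars of 1 SE; circles are rescaled CPM (filled where the adjusted p was under 0.05) and diamonds the deposited CPM. The filled circles run from 0.57 (Gcdh) to 1.25 (Pcca), and Mmaa and Amt alone lie at or below 0 in the rescaled values.

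Next come the acyl-CoA dehydrogenases, 1 for each amino acid, of which 1 of 3 passed; differences between the 3 were not tested. Acadsb, which acts on the isoleucine intermediate, had 31.6 to 57.7 CPM in osimertinib and 18.1 to 33.6 CPM in placebo and rose by 0.73 ± 0.19 (adjusted p = 0.0252), a call lost without osimertinib library 3 or 5 or placebo library 1 or 2 (up to 0.0722). Ivd, the leucine enzyme, had 87.5, 105, 134, 114 and 171 CPM in osimertinib, against 75.5, 94.5, 81.3, 123 and 81.3 CPM in placebo. Placebo library 4 exceeded 3 osimertinib libraries, and the log2 fold change of 0.41 ± 0.19 did not pass (adjusted p = 0.125). Acad8, the valine enzyme, had 20.6, 19.9, 27.5, 19.3 and 26.0 CPM in osimertinib, against 13.0, 18.0, 18.1, 18.4 and 17.8 CPM in placebo. The groups did not overlap, yet at 0.40 ± 0.14 the adjusted p was 0.0547. It was 0.046 without osimertinib library 4, and also where only genes averaging at least 5 CPM were tested.

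All 3 genes particular to leucine after that step rose. Mccc1, the biotin-carrying subunit of methylcrotonyl-CoA carboxylase (chromosome 3, 35959312 to 36000678), had 20.1, 29.1, 41.9, 29.0 and 49.5 CPM in osimertinib, against 10.7, 14.1, 20.3, 22.1 and 13.5 CPM in placebo. Only osimertinib library 1 lay within the placebo range. The log2 fold change was 1.03 ± 0.25 (adjusted p = 0.0202), lost without osimertinib library 3 or 5 or placebo library 2 (up to 0.0601). Its partner subunit Mccc2 rose by 0.84 ± 0.23 (adjusted p = 0.0286), lost without these libraries or placebo library 1 (up to 0.0801). The Mccc2 to Mccc1 ratio was 0.587 to 0.757 in osimertinib and 0.613 to 0.886 in placebo. Auh, the hydratase that follows and that also binds AU-rich RNA, had 23.4, 28.4, 41.1, 21.0 and 47.8 CPM in osimertinib, against 11.7, 14.6, 19.4, 19.0 and 13.4 CPM in placebo. Its groups did not overlap, and it rose by 0.98 ± 0.23 (adjusted p = 0.0182), lost only without osimertinib library 3 (0.0554).

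The valine and isoleucine branches also rose. Hibadh, the 3-hydroxyisobutyrate dehydrogenase (chromosome 6, 52546228 to 52640389), had 54.2, 70.3, 107, 54.5 and 116 CPM in osimertinib, against 27.2, 34.5, 48.8, 47.9 and 38.2 CPM in placebo. Every osimertinib library exceeded every placebo library, for a log2 fold change of 0.98 ± 0.24 (adjusted p = 0.0209). Hibch, the hydrolase just before it, stood at 15.2 to 34.9 CPM in osimertinib and 8.67 to 16.2 CPM in placebo and rose by 1.02 ± 0.25 (adjusted p = 0.0203). Both were lost without osimertinib library 3 or 5 or placebo library 2 (up to 0.0607). Aldh6a1, the methylmalonate semialdehyde dehydrogenase that yields propionyl-CoA, rose least of the 3, by 0.60 ± 0.18 (adjusted p = 0.0372). It did not pass in the deposited CPM (0.0895), and of the fits without 1 library only those without osimertinib library 1 or 4 or placebo library 4 called it (up to 0.0975 in the rest). Hsd17b10, a dehydrogenase of the isoleucine branch that is also a subunit of mitochondrial RNase P (chromosome X, 152001845 to 152004442), had 50.5, 58.1, 85.1, 50.3 and 106 CPM in osimertinib, against 20.3, 31.7, 46.5, 59.9 and 27.6 CPM in placebo. Placebo library 4 overlapped the osimertinib range. At 0.94 ± 0.29 (adjusted p = 0.0402), its call was lost without osimertinib library 2, 3 or 5 or placebo library 1, 2 or 5 (up to 0.103).

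All 4 genes tested for propionate rose, among them Pcca, the largest change of the 30. Pcca, the biotin-carrying subunit of propionyl-CoA carboxylase (chromosome 14, 122534324 to 122891100), had 12.3, 16.8, 25.9, 12.3 and 28.2 CPM in osimertinib, against 4.77, 7.27, 9.58, 8.78 and 7.02 CPM in placebo. The groups did not overlap. The rise of Pcca was 1.25 ± 0.25 in log2 units, 2.37-fold (adjusted p = 0.014), and passed in each of the 10 fits without 1 library (up to 0.0439). Pccb, its partner subunit, had 23.4, 31.3, 43.2, 28.5 and 50.7 CPM in osimertinib, against 12.9, 12.6, 21.1, 22.4 and 17.6 CPM in placebo, again with no overlap. It rose by 1.00 ± 0.22 (adjusted p = 0.0178), lost only without osimertinib library 3 (0.0539). The Pccb to Pcca ratio was 1.67 to 2.31 in osimertinib and 1.73 to 2.71 in placebo. Mcee, the epimerase, rose by 0.92 ± 0.30 (adjusted p = 0.0463), with placebo libraries 3 and 4, at 20.4 and 19.8 CPM, inside the osimertinib range of 17.4 to 35.0 CPM. Its call was lost without osimertinib library 2, 3 or 5 or placebo library 1, 2 or 5 (up to 0.118). Mmut, the cobalamin-dependent methylmalonyl-CoA mutase (chromosome 17, 40934685 to 40961988), had 9.77, 13.2, 21.1, 15.2 and 21.1 CPM in osimertinib, against 7.39, 9.10, 8.87, 10.7 and 8.67 CPM in placebo. Osimertinib library 1 alone lay below a placebo library, and the log2 fold change was 0.76 ± 0.19 (adjusted p = 0.0236), lost without osimertinib library 3 or 5 or placebo library 1 or 2 (up to 0.0678).

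Of the 4 genes that prepare cobalamin for the mutase, 3 rose and Mmaa stood apart. Mmachc and Mmadhc, which process cobalamin on its way to both its enzymes, rose by 0.95 ± 0.24 (adjusted p = 0.0232) and 0.96 ± 0.27 (adjusted p = 0.0297). Mmachc had 8.28 to 16.2 CPM in osimertinib and 3.60 to 7.47 CPM in placebo, and Mmadhc 29.5 to 62.5 CPM in osimertinib and 14.6 to 31.6 CPM in placebo. Mmab, the adenosyltransferase, rose by 0.69 ± 0.21 (adjusted p = 0.0399). All 3 calls were lost without osimertinib library 3 or 5 or placebo library 1 or 2, those of Mmab and Mmadhc also without placebo library 5 and that of Mmadhc also without osimertinib library 2 (up to 0.104). Mmaa, the GTPase that guards the mutase (chromosome 8, 79263598 to 79294937), had 21.6, 20.4, 25.4, 21.6 and 29.0 CPM in osimertinib, against 21.5, 20.4, 31.1, 27.1 and 21.9 CPM in placebo. The groups covered nearly the same range, and the log2 fold change was -0.04 ± 0.14 (adjusted p = 0.861), or 0.24 ± 0.32 in the deposited CPM, below the 0.27 by which the median of all genes stood there.

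**Figure D3:**
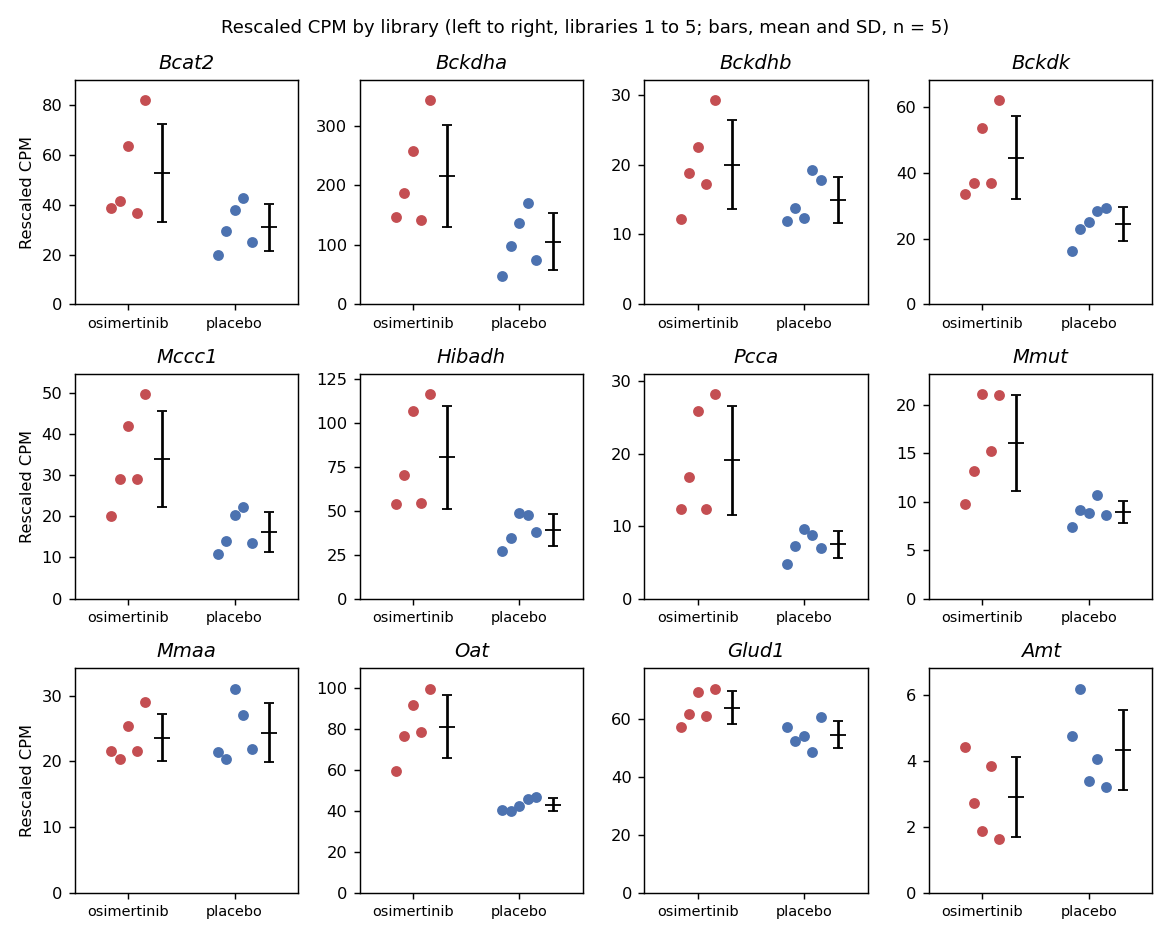
Rescaled CPM of 12 genes in each library (points, osimertinib left of placebo, libraries 1 to 5 from left to right) with the group mean and SD (n = 5 each), on axes that start at 0. Bckdk, Hibadh, Pcca and Oat show no overlap between the groups, Mmaa spans 20.4 to 29.0 in osimertinib and 20.4 to 31.1 in placebo, and Amt is lower on average in osimertinib.

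Outside the branched-chain pathway the picture was mixed. Oat, the ornithine aminotransferase that links ornithine to glutamate and proline (chromosome 7, 132557478 to 132576398), had 59.5, 76.5, 91.3, 78.3 and 99.5 CPM in osimertinib, against 40.3, 40.0, 42.2, 45.6 and 46.7 CPM in placebo. No library overlapped, and the placebo values were close together, with an SD of 3.04. Oat rose by 0.89 ± 0.13 (adjusted p = 0.00867, the lowest of the 30 genes) and passed in each of the 10 fits without 1 library (up to 0.0307). Oat overlaps Fgfr2 on the same strand, where the counting may divide reads. Glud1, the glutamate dehydrogenase (chromosome 14, 34310727 to 34345265), had 57.3, 61.8, 69.3, 61.1 and 70.6 CPM in osimertinib, against 57.5, 52.3, 54.1, 48.8 and 60.8 CPM in placebo. Its log2 fold change of 0.23 ± 0.10 did not pass (adjusted p = 0.126), and 10.4% of its 31-base words also occur in other genes, the pseudogene Glud-ps sharing the most, which is the highest share in the list and leaves its reads uncertain. In the lysine pathway Aass, the first enzyme, was below the filter on 2 to 10 reads per library. Gcdh, the glutaryl-CoA dehydrogenase near the pathway's end, had 23.2 to 43.4 CPM in osimertinib and 14.6 to 28.7 CPM in placebo. It rose by 0.57 ± 0.19 with an adjusted p of 0.0492, did not pass in the deposited CPM (0.088), and was called without osimertinib library 1 or placebo library 4 but in no other fit without 1 library (up to 0.124).

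The glycine cleavage system had no gene that passed. Gldc, its decarboxylase, was below the filter, with 0 to 17 reads per library. The 0 reads of placebo library 2 allow up to 0.189 deposited CPM, counting error only. Amt, the aminomethyltransferase (chromosome 9, 108296853 to 108302302), had 4.41, 2.74, 1.87, 3.86 and 1.62 CPM in osimertinib, against 4.77, 6.19, 3.40, 4.06 and 3.20 CPM in placebo. Osimertinib libraries 3 and 5, the highest for most other genes, were the lowest here. The log2 fold change was -0.55 ± 0.25 (adjusted p = 0.127). Gcsh, the lipoate-carrying H protein, had 15.6, 19.7, 28.8, 17.1 and 34.3 CPM in osimertinib, against 10.6, 10.7, 17.2, 20.1 and 9.40 CPM in placebo, at 0.74 ± 0.25 (adjusted p = 0.0548). It passed in the deposited CPM (0.0443) and without osimertinib library 1 or 4 or placebo library 3 or 4 (0.0304 at the lowest). Shmt2, the mitochondrial serine hydroxymethyltransferase, had 16.8 to 23.5 CPM in osimertinib and 16.0 to 21.4 CPM in placebo, at 0.23 ± 0.12 (adjusted p = 0.186).

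The promoters of Pcca and Oat, the pair of genes called in every fit, and of Glud1, which did not pass, are shown to set called genes beside one that was not called. Each window runs from 250 bases before to 50 bases after the transcript start, 5′ to 3′ on the strand of the gene (RefSeq, GRCm38.p6). Capitals mark the GC box GGGCGG, or CCGCCC read from the other strand, and the core GCATGCGC bound by NRF1. They lie at chr14:122534078-122534377 on the plus strand, chr7:132576349-132576648 on the minus strand and chr14:34310477-34310776 on the plus strand.
Pcca: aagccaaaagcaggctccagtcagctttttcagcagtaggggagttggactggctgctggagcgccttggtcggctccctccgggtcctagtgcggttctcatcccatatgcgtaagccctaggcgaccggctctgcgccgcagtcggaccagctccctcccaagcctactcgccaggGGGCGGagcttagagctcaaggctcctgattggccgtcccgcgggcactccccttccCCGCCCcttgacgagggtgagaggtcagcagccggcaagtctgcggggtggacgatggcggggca
Oat: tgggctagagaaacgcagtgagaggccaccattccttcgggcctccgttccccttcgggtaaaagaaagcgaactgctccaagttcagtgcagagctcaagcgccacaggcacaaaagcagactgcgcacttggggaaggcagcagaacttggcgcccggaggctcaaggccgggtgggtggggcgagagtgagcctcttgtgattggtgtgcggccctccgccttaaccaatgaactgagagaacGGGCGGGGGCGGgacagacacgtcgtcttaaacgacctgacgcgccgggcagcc
Glud1: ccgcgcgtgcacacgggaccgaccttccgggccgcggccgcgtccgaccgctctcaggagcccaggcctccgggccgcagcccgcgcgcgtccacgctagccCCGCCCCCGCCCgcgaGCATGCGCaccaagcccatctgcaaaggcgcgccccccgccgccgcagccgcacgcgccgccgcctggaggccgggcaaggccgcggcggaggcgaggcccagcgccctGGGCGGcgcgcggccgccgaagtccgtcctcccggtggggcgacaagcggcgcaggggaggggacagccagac
Pcca and Oat each held 2 GC boxes and no NRF1 core, and Glud1 held 3 GC boxes and 1 NRF1 core. Of the 27 tested genes of the list with a RefSeq window, 70.4% held a GC box on either strand, beside 69.6% of all tested genes with one. The NRF1 core lay in 3 of the 27, Glud1, Pccb and Shmt2, against 5.99% of all tested genes. The E-box CACGTG lay in 1, Mccc2, against 11.7%, and the ERR site TCAAGGTCA in none, against 0.306%. These matches are descriptions of letters in the windows only.

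The libraries that were high for these genes were also high for other genes of muscle mitochondria. As the mean centred log2 level of 24 genes, the branched-chain and propionate steps stood at -0.04, 0.24, 0.73, 0.11 and 0.95 in osimertinib libraries 1 to 5, against -0.84, -0.45, -0.19, 0.01 and -0.50 in placebo. Osimertinib library 1 overlapped placebo library 4. The citric acid cycle followed at 0.02, 0.40, 1.00, 0.14 and 1.17 in osimertinib and -1.21, -0.77, -0.09, 0.04 and -0.71 in placebo. It had 17 of 18 genes higher and a median of 1.11, and fatty acid oxidation had 11 of 24 higher and a median of 1.00. Over all genes 10.4% were higher. On the fatty acid list Cd36, Slc27a1, Cpt1a and Cpt1b did not pass and lay at 0.01 to 0.10. The mean level of ventricular muscle markers ran the same way, at 0.04, 0.28, 0.65, 0.03 and 0.81 in osimertinib and -1.02, -0.50, 0.11, 0.23 and -0.62 in placebo. Of these 10 markers 2, Actc1 and Pln, were called higher. The others did not pass, with log2 fold changes from 0.04 for Ttn (limma adjusted p = 0.873) to 1.18 for Myl3 (0.0737). The branched-chain level minus the marker level lay between -0.07 and 0.15 in osimertinib and between -0.30 and 0.17 in placebo, so this difference overlapped. The part of muscle content in the rise was not tested. The 13 mitochondrially encoded messenger RNAs had none called and a median of -0.61, or -0.32 in the deposited CPM.

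**Figure D4:**
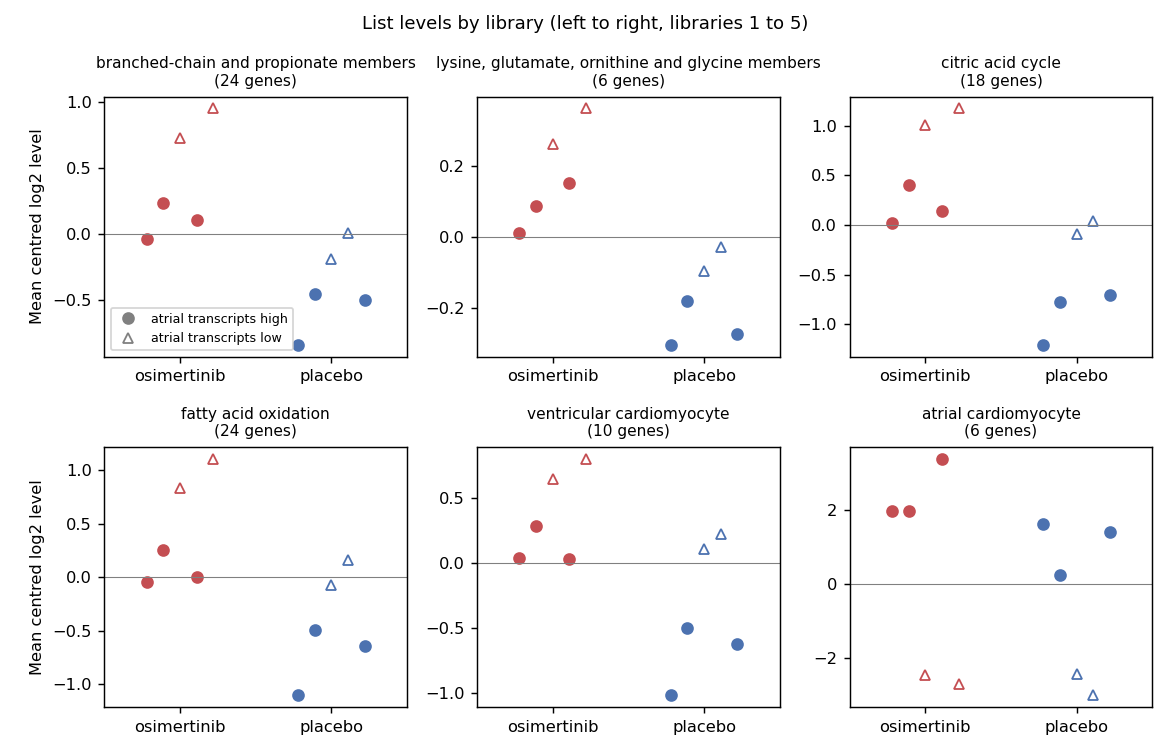
Mean centred log2 level of 6 gene lists in each library (osimertinib left of placebo, libraries 1 to 5 from left to right), with filled circles for the 6 libraries with high atrial transcripts and open triangles for the 4 with low ones. Within each kind of symbol the osimertinib points of the branched-chain list lie above the placebo points, as do those of the citric acid cycle, fatty acid oxidation and ventricular lists.

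Atrial transcripts were uneven, and within each kind of library the groups separated. Among the 6 libraries with high atrial transcripts the branched-chain level was -0.04, 0.24 and 0.11 in osimertinib libraries 1, 2 and 4, against -0.84, -0.45 and -0.50 in placebo libraries 1, 2 and 5. Among the other 4 it was 0.73 and 0.95 in osimertinib libraries 3 and 5, against -0.19 and 0.01 in placebo libraries 3 and 4. The citric acid cycle separated likewise, at 0.02, 0.40 and 0.14 against -1.21, -0.77 and -0.71, and at 1.00 and 1.17 against -0.09 and 0.04. So did ventricular muscle markers, at 0.04, 0.28 and 0.03 against -1.02, -0.50 and -0.62, and at 0.65 and 0.81 against 0.11 and 0.23. The separation was therefore not particular to the branched-chain genes. Counted gene by gene, 22 of the 30 had every osimertinib library above every placebo library within both sets, as had 15.4% of all tested genes. The 8 exceptions were Bckdhb, Ppm1k, Ivd, Aldh6a1, Mmaa, Glud1, Amt and Shmt2. With the log2 summed CPM of the 7 atrial markers as a covariate, 26 of the 30 were higher and 1, Amt, lower. Over all genes 18.8% were higher and 15% lower. Bcat2, Bckdhb, Ivd, Acad8 and Gcsh joined the calls. That sum includes Nppa, at 442 to 1820 CPM. Nppa itself had a log2 fold change of 0.90 (limma adjusted p = 0.0543). Osimertinib library 3 had 1496 CPM of Nppa with 0.288 of Myl7, and placebo library 1 had 796 with 256. The covariate therefore did not follow the split by Myl7, and these calls do not show an adjustment for atrial tissue. The split and both counts were chosen after the data were examined, and the sets hold only 3 or 2 libraries a group.

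**Figure D5:**
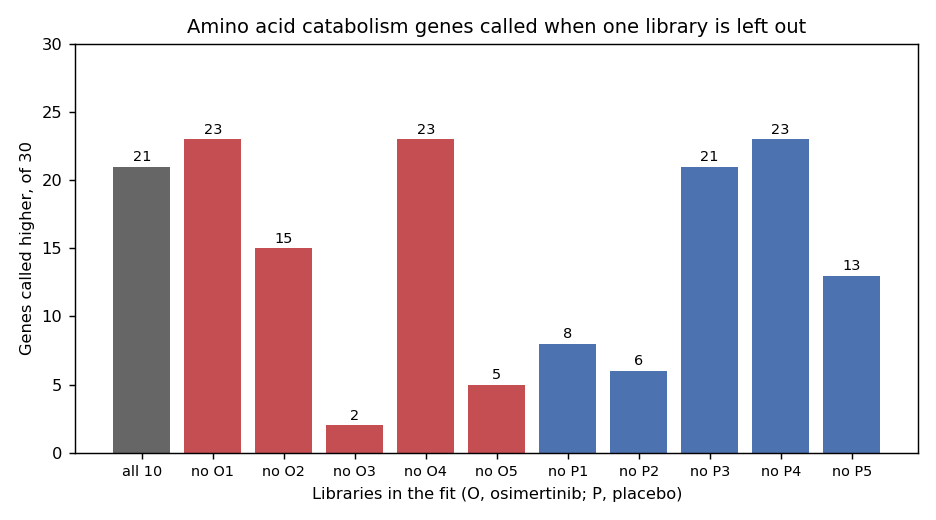
Number of the 30 genes called higher (adjusted p under 0.05) with all 10 libraries and with each library left out (O, osimertinib; P, placebo). The bars run from 2 without osimertinib library 3 to 23 without osimertinib library 1 or 4 or placebo library 4.

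How many genes passed depended on single libraries. With all 10 libraries 21 were called, and the number was 2 without osimertinib library 3 (Pcca and Oat), 5 without osimertinib library 5, 6 without placebo library 2, 8 without placebo library 1 and 13 without placebo library 5, the one rich in mitochondrial reads. Over all genes the share called higher fell in the same fits, to 1.76%, 2.39%, 2.73%, 3.13% and 8.35%. It was 6.89% without osimertinib library 2, where 15 of the 30 were called, and 12.6% without placebo library 3, where 21 were. Without osimertinib library 1 or 4 or placebo library 4, 23 were called, against 11.6%, 11% and 11.1% of all genes. The median log2 fold change of the 30 stayed between 0.67 and 0.93 over the 10 fits.

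Among the other genes around these pathways, 9 of the 16 of branched-chain transport, shared steps and regulation rose and none fell, at a median of 0.86. Over all genes 10.4% rose and 10.5% fell. Of those that rose, Echs1, Hadha, Hadhb and Hadh are also on the fatty acid oxidation list and Dld on the citric acid cycle list. Abat, a transaminase also known for degrading GABA, rose to 7.67 ± 1.96 CPM in osimertinib, against 3.27 ± 0.68 in placebo (SD, n = 5 each), by 1.11 ± 0.17 (limma adjusted p = 0.00867). Slc43a2, a plasma membrane carrier of large neutral amino acids, rose by 0.89 ± 0.19 (adjusted p = 0.0161). Both passed in each of the 10 fits without 1 library. Echs1, the hydratase shared with fatty acid oxidation, rose by 1.25 ± 0.30 (adjusted p = 0.0209), lost without osimertinib library 3 or 5 or placebo library 2 (up to 0.0611). Dld, the E3 of the complex, rose by 0.84 ± 0.24 (adjusted p = 0.0335), lost without osimertinib library 2, 3 or 5 or placebo library 1, 2 or 5 (up to 0.0905). Slc25a44, the mitochondrial branched-chain carrier, was at 0.28 ± 0.12 (adjusted p = 0.122), and Klf15, a transcription factor known to induce this pathway in heart, at -0.07 ± 0.23 (adjusted p = 0.853). The carrier genes Slc7a5, Slc3a2, Slc7a8 and Slc43a1 did not pass either, at -0.15 to 0.12.

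Other amino acid lists are given by their counts, beside the 10.4% of all genes that rose. Of 15 genes of glutamate, proline and transamination 5 rose. The lowest p was that of glutamine synthetase, Glul, at 103 ± 18.4 CPM in osimertinib, against 61.5 ± 9.24 in placebo, with a log2 fold change of 0.73 ± 0.15 (adjusted p = 0.014) that passed in each of the 10 fits without 1 library. The largest log2 fold change was that of the cytosolic aspartate aminotransferase Got1, at 1.23 ± 0.33 (adjusted p = 0.0291), and its mitochondrial counterpart Got2 rose by 1.08 ± 0.29 (adjusted p = 0.0292), both lost without osimertinib library 3 or 5 or placebo library 1 or 2 (up to 0.0801). Serine and one-carbon metabolism had 1 of 13 higher, Gcat, which splits the threonine product to glycine, at 1.12 ± 0.20 (adjusted p = 0.0121), called in each of the 10 fits. Sulfur and aromatic amino acid genes had 4 of 10 higher, of which the sulfurtransferase Tst had the lowest p, at 0.78 ± 0.15 (adjusted p = 0.0132), and 1 lower, Csad of taurine synthesis, at -0.48 ± 0.15 (adjusted p = 0.0448), which was picked after its values were seen and was called in 3 of the 10 fits without 1 library, those without osimertinib library 1 or 4 or placebo library 3. In the deposited CPM Csad was at -0.21 and did not pass (adjusted p = 0.757). Biotin and lipoate genes had 1 of 9 higher, pyruvate carboxylase (Pcx), cobalamin uptake and use 2 of 7, methionine synthase Mtr and the cobalamin receptor Cd320, and the remaining lysine genes 4 of 8, of which 3 are succinyl-CoA synthetase subunits shared with the citric acid cycle. Pcx, Mtr and Cd320 were each called in 4 of the 10 fits without 1 library and lost without osimertinib library 3 or 5 or placebo library 1, 2 or 5, Pcx and Cd320 also without osimertinib library 4 and Mtr also without osimertinib library 2. None of the 3 passed in the deposited CPM (limma adjusted p of 0.124, 0.071 and 0.0545). The counts of the serine and one-carbon list and of the biotin and lipoate list were near the share of all genes. Medians were 0.16, 0.32, 0.32, 0.37, 0.09 and 0.42 in the order given, beside 0.01 for all genes.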

How the data were processed

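The authors deposited CPM, in which each library's gene values sum to 1000000. Per the design text, poly(A) libraries were strand-specific, reads were aligned with STAR to the mouse genome (GRCm38) and quantified with RSEM, and the authors tested with limma and voom. The submitters' processing notes instead name cutadapt 1.9, HISAT2 2.0.4, StringTie 1.3.4d, DESeq2 and the human build hg38. The identifiers are mouse, and 98.8% matched GENCODE M21, which gave coordinates and exon lengths.

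Low values were multiples of 0.01 read and whole reads in 90.7% to 93.4% of cases, so they are estimated counts, and no count test was run. Groups came from sample titles. Genes reaching 1 CPM in 5 or more libraries were tested on log2(rescaled CPM + 0.5), which understates changes of low genes, with limma 3.58.1 and an intensity trend in R 4.3.3, two-sided, with Benjamini-Hochberg adjustment. The design text's scaling is not given, and the deposited CPM carry no factor between libraries, so median-ratio factors (0.4545 to 1.344) were applied. SE is the moderated standard error. Over 45 pairs of libraries, none differed by as little as counting error allows.

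The members, lists, ratios, the split by atrial transcripts and settings were chosen with earlier results of these data known. All genes of the list are named. Of the other lists the called genes with the lowest p are named, and 6 genes whatever their test gave, of which 1 is not reported here. Pyruvate carboxylase, on the biotin list, was matched as Pcx.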

Additional observations from a re-analysis of the deposited data

Results flagged for a closer look

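Among 60 groups of 5 values (30 genes, 2 groups each), 1 held a library far from the rest of its group, where about 1 in 20 would by chance. Acad8, the valine acyl-CoA dehydrogenase, stood at 13.0 rescaled CPM in placebo library 1, and the other 4 placebo libraries lay between 17.8 and 18.4. The gap was 0.904 of the group's range on the log2 scale.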

How the results depend on the processing

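Of 329 values of single genes under alternatives that kept all libraries, 293 kept their direction and side of the threshold, and of 300 values without 1 library, 208 did. The genes of the list called higher numbered 13 with CPM computed without mitochondrial and haemoglobin genes and 11 with no filter on low values, against 21, and between 2 and 23 without 1 library. Amt was the 1 gene called lower, with the summed atrial markers, Nppa among them, as a covariate. Over all genes 2574 were called, against 833 in the deposited CPM (817 higher and 16 lower), 625 without mitochondrial and haemoglobin genes (509 higher and 116 lower), 1263 with no filter, 4177 with the atrial covariate and between 517 and 2789 without 1 library. The sign of Mmaa turned in the deposited CPM (0.24), with the atrial covariate (0.11) and without osimertinib library 2 (0.01) or placebo library 3 (0.0497) or 4 (0.001), lay at -0.117 at the lowest without 1 library, and never passed. The cause of these shifts was not tested. With the replicate number as a block 22 genes of the list (12.9% of all genes) were called higher, and 2949 genes in all. Same-numbered libraries deviated together in 3 of 5 pairs (correlations of -0.34 to 0.46). The correlations were 0.43, 0.24 and 0.46 for numbers 1, 2 and 3, where both libraries were alike in atrial transcripts. They were -0.34 and -0.16 for numbers 4 and 5, where the libraries differed in these. The correlations therefore cannot show whether the numbers pair the libraries. The difference in the share of mitochondrial reads lay between -12.0 and -5.65 percentage points without 1 library.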
